A study of Mus musculus with 4 samples.

Results

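Genes of the NuRD complex and of the methyl-CpG binding domain (MBD) family were measured in 2 groups of mouse cells. The members were 9 genes fixed by name: Mbd1, Mbd2, Mbd3, Chd4, Mta1, Mta2, Mta3, Rbbp4 and Rbbp7. Of these, 8 had a probe carrying their symbol, among 16593 genes on the array, and Rbbp4 had none and was not analysed here. The 8 genes had 18 probes in all, and the probe with the highest mean log2 intensity over the 4 arrays represents each gene. Total RNA was hybridised to Illumina mouse bead arrays, with 2 arrays for each group, which the labels call biological replicates. The labels do not say that they came from separate cultures. The first group, parnate/mAMFGi, consists of cells that the labels call converted mouse ES cells, grown in serum with LIF. The name joins parnate (tranylcypromine, an inhibitor of the histone demethylase LSD1) with mAMFGi, which the labels do not spell out. The second group consists of epiblast stem cells (EpiSCs), pluripotent cells of the postimplantation epiblast, grown in serum replacement with bFGF. Both were kept on irradiated mouse embryonic fibroblast feeders, and no genotype, strain, line or clone is given. Medium, small molecules and group cannot be told apart, and the labels do not say whether the molecules were present at harvest.

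NuRD is a repressor complex that joins nucleosome remodelling to histone deacetylation. A CHD ATPase moves nucleosomes, MTA proteins form the scaffold that holds the deacetylases HDAC1 and HDAC2, RBBP proteins bind histones, and MBD2 or MBD3, each excluding the other, ties the parts together. Mammalian MBD2 binds methylated CpG strongly and MBD3 binds it poorly, and mouse ES cells that lack Mbd3 fail to silence pluripotency genes properly when they differentiate. MBD1 reads methylated CpG outside NuRD.

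The promoter windows of an MBD gene that rose and of an MTA gene that did not pass the test are shown first, since the proteins of this family read or are recruited to CpG-rich DNA. Windows run from 250 bases before to 50 bases after the annotated start in RefSeq (GRCm38.p6), and capitals mark CG, which reads the same on both strands. The Mbd3 window is chr10:80399482-80399781 on the minus strand and the Mta2 window chr19:8941670-8941969 on the plus strand.
Mbd3: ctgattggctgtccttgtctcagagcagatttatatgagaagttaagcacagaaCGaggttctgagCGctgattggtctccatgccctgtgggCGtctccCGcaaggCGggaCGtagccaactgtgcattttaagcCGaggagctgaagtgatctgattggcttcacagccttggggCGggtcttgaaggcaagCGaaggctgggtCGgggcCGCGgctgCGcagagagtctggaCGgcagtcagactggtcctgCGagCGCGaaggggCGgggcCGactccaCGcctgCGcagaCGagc
Mta2: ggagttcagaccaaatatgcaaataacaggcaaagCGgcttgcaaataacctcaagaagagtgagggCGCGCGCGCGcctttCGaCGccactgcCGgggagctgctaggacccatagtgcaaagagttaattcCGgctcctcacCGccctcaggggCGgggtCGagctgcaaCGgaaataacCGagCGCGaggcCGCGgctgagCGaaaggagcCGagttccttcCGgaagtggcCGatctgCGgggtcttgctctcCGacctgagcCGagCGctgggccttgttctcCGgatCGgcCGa
The Mbd3 window holds 22 CG and the Mta2 window 30, against a median of 7 over 32851 windows in the table, of which 94.6% hold at least 1. Fewer CG were found in 76.9% of windows than in that of Mbd3 and in 88.3% than in that of Mta2. The Mbd3 window also holds CCAAT 3 times, each read as ATTGG on the printed strand, a motif chosen after the sequence was seen. Of all windows, 37.4% hold CCAAT on either strand at least once and 3.37% at least 3 times. The Mta2 window holds none. Windows were printed for these 2 genes, and 6 of the 9 members had a window that was counted. The windows not printed held 50 CG for Mta1, which also rose, 17 and 29 for Chd4, 38 for Rbbp7 and 39 for Rbbp4. A link between CG counts and fold changes was not tested. No window was counted for Mbd1, Mbd2 or Mta3. Member windows on 1 chromosome were skipped, though it was not removed from the 32851 windows.

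In parnate/mAMFGi cells Mbd3 rose 3.52-fold and Mta3 rose 2.97-fold, Mta1 rose slightly, Mbd1 fell slightly, and Mbd2, Chd4, Mta2 and Rbbp7 did not pass the test. The test was limma on log2 intensities with Benjamini-Hochberg adjustment over all 25697 probes and a threshold of 0.05. Of the 8 measured members, 3 rose, 1 fell and 4 did not pass. The background was high: 41.5% of the 16593 genes passed, with 20.2% higher and 21.2% lower. The members' count of 4 of 8 is therefore near the background. Their median log2 fold change was 0.06, against 0.02 for all genes, and their median absolute log2 fold change was 0.21, against 0.19. The arrays of the groups did not overlap for 5 of the 8, against 66.1% of all genes. An absolute change as large as that of Mta3 was found in 4.42% of genes, and Mbd3 and Mta3 were the members that reached it.

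**Figure D1:**
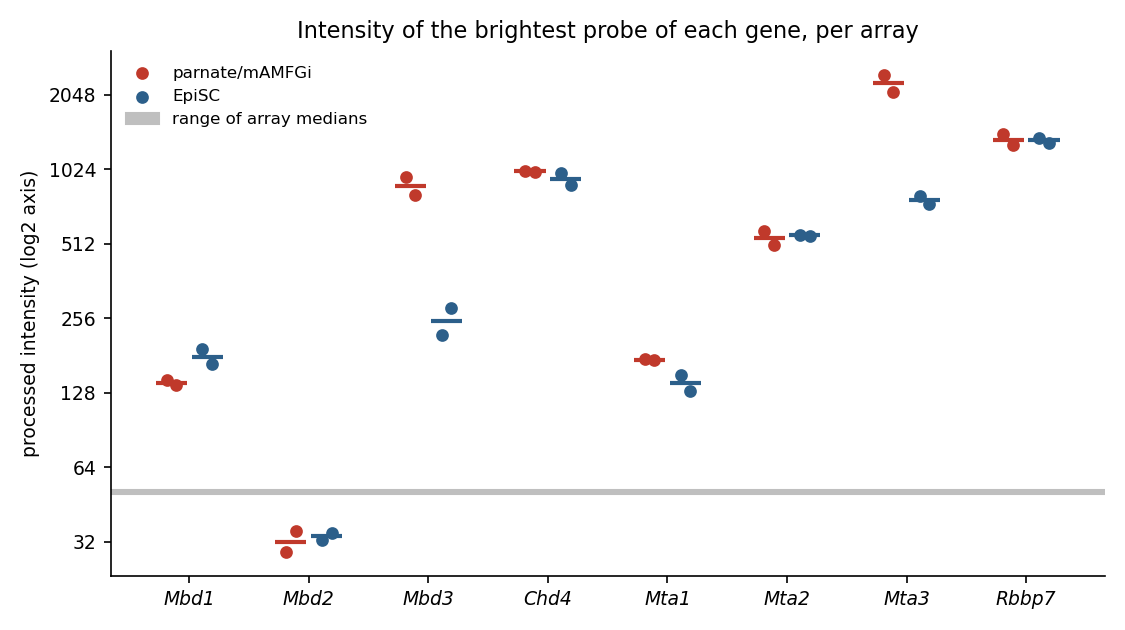
Processed intensity (log2 axis) of each gene's brightest probe on each array, parnate/mAMFGi to the left of EpiSC; short lines are geometric means and the grey band spans the array medians of 50 to 52. Mbd3 (808.2 to 950.7 against 220 to 282.3) and Mta3 (2105.6 to 2473.5 against 739.1 to 799.6) are well separated, and Mbd2 lies below the band on every array.

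Among the MBD genes, Mbd3 carried the change. Its probe read 950.7 and 808.2 in parnate/mAMFGi cells, against 220 and 282.3 in EpiSCs. Both parnate/mAMFGi arrays lay far above both EpiSC arrays. The means were 879.5 ± 100.8 and 251.2 ± 44.05 (SD, n = 2 each), a 3.52-fold rise with a 95% interval of 2.93 to 4.22 (1.81 on the log2 scale, SE 0.12; adjusted p = 1.84e-08, limma). The array held 1 probe for Mbd3, so no other probe checks this value.

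Mbd2, the NuRD subunit that takes the place of MBD3, was also measured by 1 probe. It read 29.2 and 35.3 in parnate/mAMFGi cells, against 32.6 and 34.9 in EpiSCs. All 4 values lay below the array medians of 50 to 52, and only 3.5% and 4.3% of probes were dimmer. At this signal a difference between the groups could have gone unseen. The log2 fold change was −0.07 (95% interval −0.30 to 0.16, limma adjusted p = 0.691).

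Mbd1, a reader of methylated CpG that works with histone methyltransferases, fell slightly by its brightest probe. That probe read 144.2 and 137.7 in parnate/mAMFGi cells, against 192.5 and 167.6 in EpiSCs. The groups did not overlap, and the lower EpiSC array lay nearest to the other group. The log2 fold change was −0.35 with an SE of 0.10 (adjusted p = 0.0113, limma). Over 15 alternatives the adjusted p ran between 0.0035 and 0.633. With either parnate/mAMFGi replicate left out it missed the threshold (0.0666 and 0.127) at log2 fold changes of −0.38 and −0.32, about as large as reported. With EpiSC replicate 1 left out it missed at −0.25 (0.0866). With all its probes averaged the log2 fold change shrank to −0.06 (0.633). Its 4 other probes read between 35.6 and 59.4 on all arrays, near or below the array medians, and none passed.

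The remodelling ATPase gene Chd4 gave different answers by probe. The brightest probe read 1008.9 and 999.8 in parnate/mAMFGi cells, against 987.2 and 882.7 in EpiSCs. The groups lay close together and did not overlap, and the log2 fold change was 0.11 (95% interval −0.10 to 0.31, limma adjusted p = 0.475). A second probe read 225.6 and 229.1 in parnate/mAMFGi cells, against 236.8 and 283 in EpiSCs, and did not pass (adjusted p = 0.195). The dimmest read 245.7 and 311.4 in parnate/mAMFGi cells, against 169 and 165.2 in EpiSCs, and rose with a log2 fold change of 0.73 (SE 0.11, adjusted p = 8.85e-05, limma). The annotation gives all 3 probes the same transcript accession. Averaged over the 3 probes, the adjusted p was 0.0663.

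Among the MTA scaffold genes, Mta3 had the largest fold change and Mta2 did not pass. Mta3, whose protein is known from estrogen-dependent repression of Snail in breast cells, read 2473.5 and 2105.6 in parnate/mAMFGi cells, against 799.6 and 739.1 in EpiSCs. Both parnate/mAMFGi arrays were more than 2-fold above either EpiSC array. The means were 2290 ± 260.1 and 769.4 ± 42.78 (SD, n = 2 each), a 2.97-fold rise with a 95% interval of 2.54 to 3.47 (1.57 on the log2 scale, SE 0.10; adjusted p = 1.49e-08, limma). A second, dim Mta3 probe read 84.7 and 78.8 in parnate/mAMFGi cells, against 51.2 and 59.2 in EpiSCs. It also rose, with a log2 fold change of 0.57 (adjusted p = 0.000332, limma), from EpiSC values near the array medians. Averaged over both probes the log2 fold change was 1.07.

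Mta1, the founding member of the family, read 174.9 and 173.3 in parnate/mAMFGi cells, against 150.8 and 129.8 in EpiSCs. The parnate/mAMFGi arrays were nearly equal and lay above both EpiSC arrays, a log2 fold change of 0.32 with an SE of 0.10 (adjusted p = 0.0215, limma). Over 15 alternatives the adjusted p ran between 0.00511 and 0.154. With either parnate/mAMFGi replicate left out it missed the threshold (0.144 and 0.127) at log2 fold changes of 0.31 and 0.32, about as large as reported. With EpiSC replicate 2 left out it missed at a smaller 0.21 (0.154), and under scaling to equal medians at 0.26 (0.0562). Mta2 read 579.9 and 506 in parnate/mAMFGi cells, against 556.8 and 553.5 in EpiSCs. Its EpiSC values lay between the parnate/mAMFGi values, and the log2 fold change was −0.04 (95% interval −0.25 to 0.18, adjusted p = 0.845, limma). Mta1 and Mta2 had 1 probe each.

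The histone chaperone gene Rbbp7, whose protein is shared by NuRD and several other complexes, was measured by 4 probes, and none passed. The brightest read 1426 and 1279.9 in parnate/mAMFGi cells, against 1375 and 1308 in EpiSCs, with overlapping groups. Its log2 fold change was 0.01 (95% interval −0.20 to 0.22, limma adjusted p = 0.956). The other probes had log2 fold changes of −0.07, −0.12 and −0.21, with adjusted p-values of 0.194 to 0.64 in limma. Over all members, 6 of the 18 probes passed, 5 higher and 1 lower, against 38.4% of all 25697 probes (19.7% higher and 18.7% lower).

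**Figure D2:**
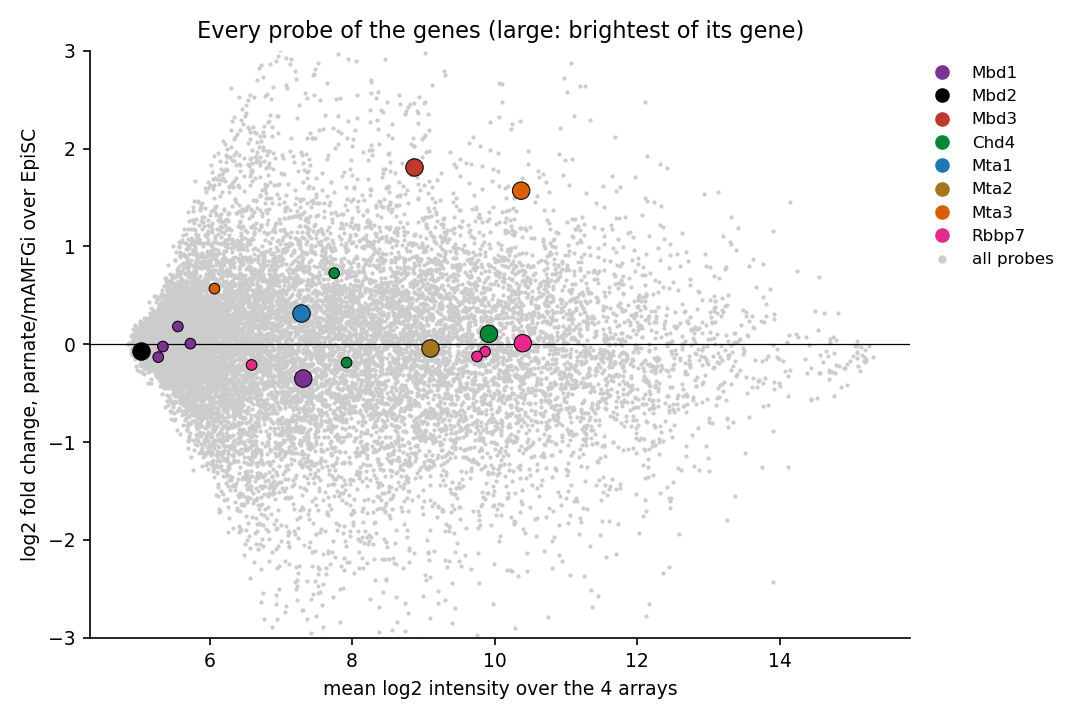
Log2 fold change (parnate/mAMFGi over EpiSC) against mean log2 intensity over the 4 arrays for every probe of the genes, over all probes in grey; 134 probes beyond 3 on the vertical axis are not shown. The Mbd3 probe at 1.81 and the brighter Mta3 probe at 1.57 lie apart from the other probes of the genes, and the 3 Chd4 probes spread from −0.19 to 0.73.

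Differences between paralogs were taken as the difference of their log2 fold changes, which sets no probe's level against another's. Mbd3 exceeded Mbd2 by 1.89, with every pairing of a parnate/mAMFGi array and an EpiSC array giving between 1.50 and 2.27. Mta3 exceeded Mta2, whose difference Mta2 minus Mta3 was −1.61 with array pairings of −1.68 to −1.54. Mta1 minus Mta3 was −1.25 (pairings −1.42 to −1.09) and Mta1 minus Mta2 was 0.35 (pairings 0.16 to 0.55). Hdac1 exceeded Hdac2 by 1.58 (pairings 1.46 to 1.69). These 5 differences are given as a description with no test, since the exact two-sided permutation test planned for them cannot go below p = 0.333 with 2 arrays against 2 and says nothing about them. Because Mbd2 read below the array medians throughout, its side of the comparison has little information. The pairs Rbbp7 with Rbbp4 and Chd4 with Chd3 were not analysed here.

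Of the other NuRD subunits, 5 of 7 were measured, and 3 rose, 1 fell and 1 did not pass. Over all genes, 20.2% rose and 21.2% fell. The median log2 fold change of the 5 was 0.26, against 0.02 for all genes. The catalytic deacetylase genes went opposite ways. Hdac1 read 1080.1 and 1028.2 in parnate/mAMFGi cells, against 589.6 and 511.8 in EpiSCs, a log2 fold change of 0.94 (limma adjusted p = 2.26e-06). Hdac2 read 3975.4 and 4049.8 in parnate/mAMFGi cells, against 6376 and 6088.1 in EpiSCs, a log2 fold change of −0.64 (limma adjusted p = 5.1e-05). For both genes the arrays of the groups lay well apart. Hdac1 and Hdac2 had 1 probe each, so no other probe checks these values.

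Gatad2b, which bridges the MBD protein and the ATPase, read 121.3 and 129 in parnate/mAMFGi cells, against 100 and 88.2 in EpiSCs (log2 fold change 0.41, limma adjusted p = 0.00354). Over 14 alternatives the adjusted p ran between 0.00167 and 0.072, and the highest came when parnate/mAMFGi replicate 2 was left out. The small subunit gene Cdk2ap1 read 18009.2 and 16122.8 in parnate/mAMFGi cells, against 14080.6 and 14312.6 in EpiSCs (log2 fold change 0.26, limma adjusted p = 0.0442). That call stood close to the threshold and was lost in 6 of 14 alternatives, without any 1 of the 4 arrays among them, with adjusted p-values of 0.00257 to 0.347 over the 14. The alternative ATPase gene Chd5, known from neurons and testis, read 53.3 to 56.4 in parnate/mAMFGi cells, against 55.1 to 59.4 in EpiSCs, close to the array medians, and did not pass (adjusted p = 0.701, limma). Gatad2b, Cdk2ap1 and Chd5 had 1 probe each.

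**Figure D3:**
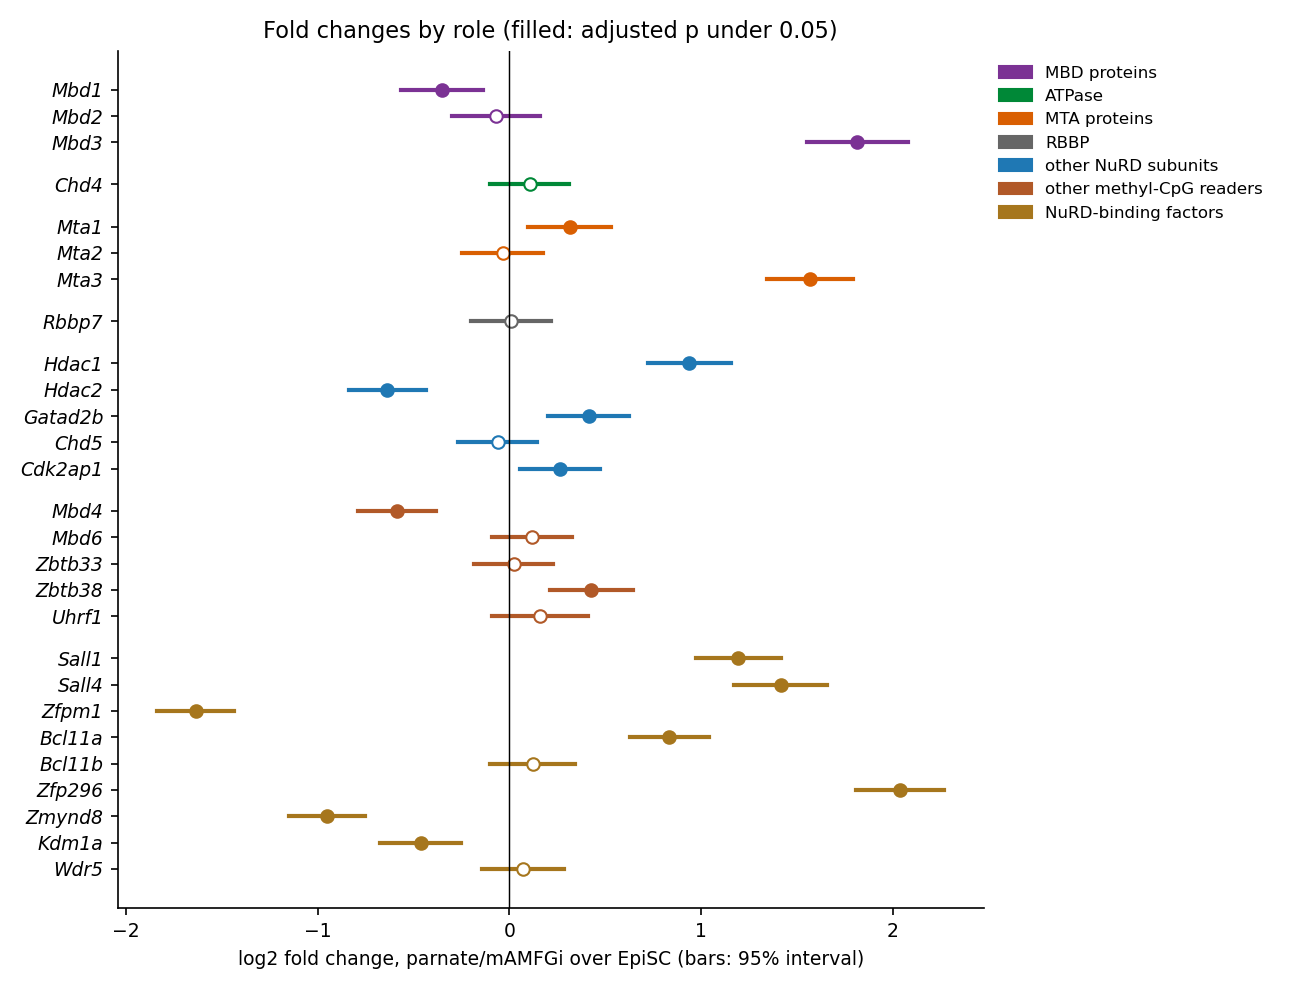
Log2 fold change (parnate/mAMFGi over EpiSC) with its 95% interval for the measured members, the other NuRD subunits, other methyl-CpG readers and NuRD-binding factors; filled circles passed an adjusted p of 0.05 in limma. Mbd3 and Mta3 lie to the right of every other NuRD subunit shown, Hdac2 is the NuRD subunit that fell, and Zfpm1 and Zfp296 mark the ends of the scale at −1.64 and 2.04.

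Among other methyl-CpG readers, 5 of 7 were measured, and 1 rose, 1 fell and 3 did not pass. Their median log2 fold change was 0.12. The shares over all genes were 20.2% higher and 21.2% lower. Mbd4, a glycosylase that repairs mismatches left by deaminated methylcytosine, read 188 and 182.2 in parnate/mAMFGi cells, against 265.8 and 290.2 in EpiSCs (log2 fold change −0.59, limma adjusted p = 0.000139). The zinc finger reader gene Zbtb38 read 44.3 and 48.8 in parnate/mAMFGi cells, against 32.5 and 36.7 in EpiSCs, below the array medians on all 4 arrays. Its log2 fold change of 0.43 passed (limma adjusted p = 0.00307). Over 13 alternatives the adjusted p ran between 0.000306 and 0.0778, and the highest came when parnate/mAMFGi replicate 2 was left out. Uhrf1, which recruits the maintenance methyltransferase to hemimethylated DNA, read 7362.5 and 7685.4 in parnate/mAMFGi cells, against 7670.6 and 5900.4 in EpiSCs. The groups overlapped, and its brightest probe did not pass (log2 fold change 0.16, limma adjusted p = 0.344). A dim Uhrf1 probe, at 94.9 to 96.3 in parnate/mAMFGi cells and 53.3 to 55.7 in EpiSCs, did pass (adjusted p = 4.43e-06, limma). Mbd6 was below the array medians, with a log2 fold change of 0.12 (adjusted p = 0.419, limma).

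Of 9 factors known to bind NuRD, all measured, 4 rose, 3 fell and 2 did not pass, with a median log2 fold change of 0.12. Among all genes, 20.2% rose and 21.2% fell. Zfp296, a zinc finger gene of pluripotent cells, read 621.6 and 621.3 in parnate/mAMFGi cells, against 136.6 and 167.5 in EpiSCs (log2 fold change 2.04, limma adjusted p = 1.33e-09). Sall4, which holds a short NuRD-recruiting motif and is needed in ES cells, read 8194.5 and 8693.1 in parnate/mAMFGi cells, against 3545.7 and 2817.3 in EpiSCs (log2 fold change 1.42, adjusted p = 9.96e-08, limma). Its relative Sall1 read 271.3 and 230 in parnate/mAMFGi cells, against 106.6 and 111.8 in EpiSCs (log2 fold change 1.19, adjusted p = 2.43e-07, limma). These 3 genes had fully separated groups.

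Zfpm1 (FOG1), which carries the same kind of NuRD-recruiting motif and is a partner of GATA factors, went the other way. It read 619.5 and 593.9 in parnate/mAMFGi cells, against 1849.5 and 1920.9 in EpiSCs (log2 fold change −1.64, limma adjusted p = 2.99e-09), by its 1 probe. The remaining calls, named after their values were seen, were Bcl11a (log2 fold change 0.84), Zmynd8 (−0.95) and Kdm1a (−0.46), which encodes LSD1, the enzyme that parnate inhibits. In the other complexes that contain RBBP proteins, 10 of 11 genes were measured, and 2 rose, 2 fell and 6 did not pass. Their median was −0.02, and the shares over all genes were 20.2% higher and 21.2% lower. The Sin3 subunit gene Suds3 fell (log2 fold change −0.78, adjusted p = 2.48e-05, limma), and the Polycomb gene Eed rose (0.54, adjusted p = 0.00035, limma). Of the chromatin assembly factor genes, Chaf1a rose by 0.61 (adjusted p = 0.000117, limma) and Chaf1b fell by 0.33 on the log2 scale. The Chaf1b call (adjusted p = 0.0111, limma) ran between 0.00426 and 0.118 over 14 alternatives. It was lost when either parnate/mAMFGi replicate was left out (0.0574 and 0.118) and under normexp with the offset of 16 (0.105).

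Genes that earlier work reported as repressed by Mbd3 and NuRD in mouse ES cells were mostly higher, in the same cells in which Mbd3 itself was higher. Of 6 such genes, 5 rose and 1 did not pass, with a median log2 fold change of 2.77. Among all genes, 20.2% rose. Klf5, a pluripotency factor gene, read 4946.9 and 5337.2 in parnate/mAMFGi cells, against 812.6 and 750.7 in EpiSCs (log2 fold change 2.72, limma adjusted p = 2.18e-11). Zfp42 (5.49), Tbx3 (3.38) and Klf4 (2.81) had larger log2 fold changes, from EpiSC values near the array medians, and all of these also belong to the ES cell markers. The preimplantation gene Pramel7 rose (log2 fold change 0.52) with all values near or below the array medians, and Pramel6 did not pass (adjusted p = 0.358, limma). This list was chosen with the rise of its ES cell genes known, so its direction is no independent evidence.

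Markers of the labelled cell types and of the feeders were read beside these values. The counts below stand against 20.2% of all genes that rose and 21.2% that fell. Of 10 measured ES cell markers, 9 rose, and their summed intensity was 45905 and 47878 in parnate/mAMFGi cells, against 693.2 and 742.9 in EpiSCs. Most of that sum came from Dppa5a, and without it the sums were 14168 and 14562 in parnate/mAMFGi cells, against 606.5 and 658.7 in EpiSCs. Of 9 EpiSC markers, 4 rose and 4 fell, with a median log2 fold change of −0.19. Krt18 (−3.44), Lefty1 (−3.20) and Fgf5 (−0.78) fell most, and Pou3f1 rose (1.19). Against its name, their summed intensity was higher in parnate/mAMFGi cells, at 24691 and 26553, against 19416 and 18836 in EpiSCs. Without the brightest of them, Dnmt3b, it was 7363 and 7503.9 in parnate/mAMFGi cells, against 6669.7 and 7022.1 in EpiSCs. Otx2, the next brightest and named after its values were seen, read 4668.9 and 4812.1 in parnate/mAMFGi cells, against 3140.5 and 3169.1 in EpiSCs. These sums therefore depend mostly on a few bright genes and do not describe the EpiSC markers as a set. Of 5 markers shared by pluripotent cells, 3 rose and 2 did not pass. Of 11 fibroblast feeder markers, 8 rose and 2 fell, with a summed intensity of 5253.5 and 4795.5 in parnate/mAMFGi cells, against 4088.5 and 3324.2 in EpiSCs. Sparc, the brightest of them and named, like Thy1, after its values were seen, fell by its brightest probe (−0.44). A second Sparc probe rose (0.33, adjusted p = 0.0266, limma). It read 2399.4 and 1967.7 in parnate/mAMFGi cells, against 1800.5 and 1663.8 in EpiSCs. Without Sparc the sums were 3358.8 and 3012 in parnate/mAMFGi cells, against 1266.5 and 1114.6 in EpiSCs. Lox (4.23) and Col1a1 (2.21) rose most, Thy1 fell (−1.04), and Postn lay below the array medians throughout. The part of feeder RNA in the values of Mbd3, Mta3 and the other genes was not tested. In such bulk samples, fewer cells of a type and less RNA per cell cannot be told apart.

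**Figure D4:**
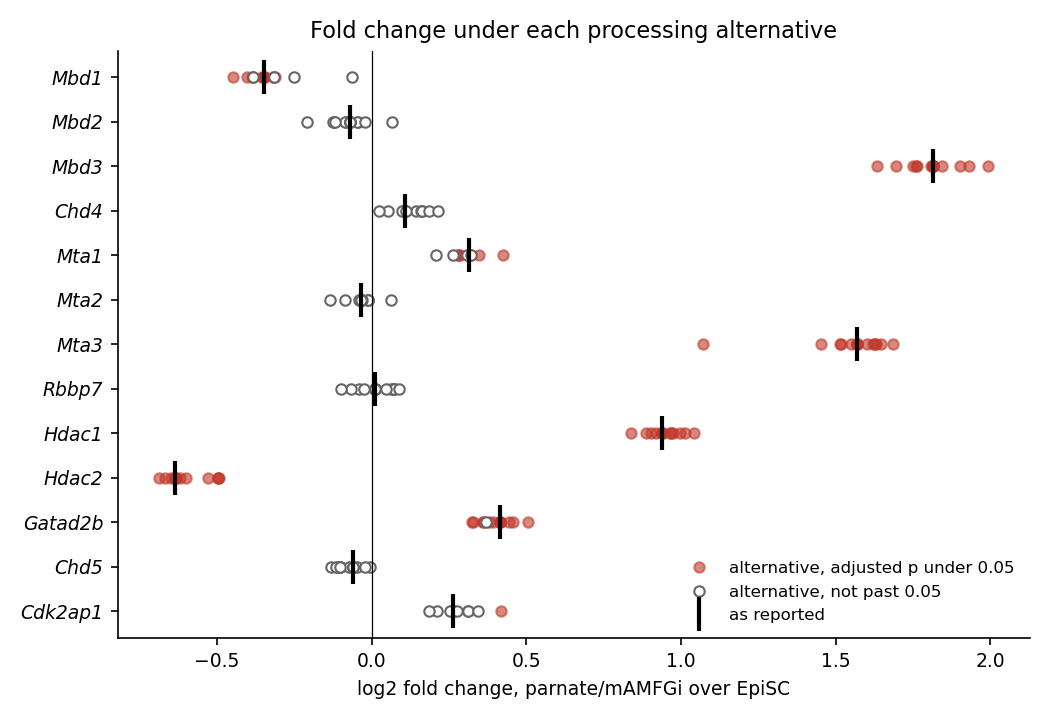
Log2 fold change (parnate/mAMFGi over EpiSC) of the measured members and other NuRD subunits under each alternative; red points passed an adjusted p of 0.05, open points did not, and the black bar is the reported value. Mbd3 (1.64 to 1.99), Mta3 (1.07 to 1.69), Hdac1 (0.84 to 1.04) and Hdac2 (−0.69 to −0.49) passed in every alternative drawn, whereas Mbd1, Mta1, Gatad2b and Cdk2ap1 have open points.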

How the data were processed

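Biotin-labelled cRNA was made from total RNA with the Illumina TotalPrep kit, per the labels' protocols. The values are the authors' deposited processed intensities on a linear scale, 1 per probe and array. How background was treated and arrays were normalized, and with which software, is not given in the sources used here. Array medians were 52 and 52 in parnate/mAMFGi cells and 50 and 50.3 in EpiSCs, and the lowest value was 25.5, so folds of dim probes are compressed. Replicate arrays correlated at r = 0.9976 (parnate/mAMFGi) and 0.9963 (EpiSC) across probes, which are not independent replicates. A table of signals before normalization held 8 columns of values whose names match no label, and these were left out, so detection could not be called.

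Values were log2-transformed without filter or pseudocount and fitted with limma 3.58.1 in R 4.3.3 (2 residual and 11.8 prior degrees of freedom). The number of arrays limits the precision, and p-values rest on this shared spread. Symbols came from the platform annotation; 23978 of 25697 probes had 1, 0 several and 1719 none, and all 74 listed genes with a probe were found by gene ID in a RefSeq table of GRCm38.p6. Named genes were all members, the other NuRD subunits, genes a result turned on and the 4 largest absolute changes in each other list. Of the ES cell, shared pluripotent and feeder markers, only some of those 4 were named. One gene of the list of methyl-CpG readers is not reported here. Members, lists and tests were chosen with earlier results of these data known. No slide or scan batch is named in the sources used here. Alternatives were 3 normalizations, 2 normexp offsets (50 and 16), a pseudocount of 16, the brighter probes alone, eBayes with trend or robust, a replicate block, leaving out each array, and averaging a gene's probes.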

Additional observations from a re-analysis of the deposited data

How the results depend on the processing

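The numbers of probes called, 5069 higher and 4801 lower, ranged from 3737 to 5165 and from 3753 to 5360 over 14 alternatives. The count of members that rose, 3, was 2 or 3 in 15 alternatives, and 2 came from losing Mta1. The count of members that fell, 1 (Mbd1), ranged from 0 to 1 when arrays were left out and was 0 when a gene's probes were averaged. Of 47 single genes, 36 kept their direction and side of the threshold in every alternative run. Of the 39 called as reported, none changed direction and 6 lost the call in some alternative (Mbd1, Mta1, Gatad2b, Cdk2ap1, Zbtb38 and Chaf1b). Of those not called, 2 passed in some alternative. Nanog passed after scaling to a common median (adjusted p = 0.0209) and with the pseudocount (0.0246), in a range of 0.0209 to 0.329, and Uhrf1 without EpiSC replicate 1 (0.0177, range 0.0177 to 0.885). Those not called that changed sign were Rbbp7 (log2 fold change −0.042 after scaling to a common median, −0.10 as a mean of its probes, and −0.067 to 0.089 with an array left out), Mbd2 (−0.208 to 0.066 with an array left out), Mta2 (−0.134 to 0.063) and Uhrf1 (−0.028 to 0.35). The causes of these changes were not tested. Leaving out an array also lowers the residual degrees of freedom, and the part this played was not tested either.

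Replicate numbers are shared by the groups, but the labels do not say that they pair samples, and replicate 1 deviations correlated at −0.057 over probes. With a replicate block, 5084 probes were called higher and 4828 lower, and members stayed at 3 higher and 1 lower, so no member's call changed.

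Signal limits Mbd2, Chd5, Zbtb38, Mbd6, Pramel6 and Pramel7, which read near or below the array medians. It also limits Sin3b and Sap18, from the other complexes with RBBP proteins, and the ES cell marker Nr0b1. Sin3b, Sap18 and Nr0b1 are named after their values were seen. They did not pass and lay below the medians on every array.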
